A study of Mus musculus with 23 samples.

Results

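Hippocampal microglia of Slc11a2 knockdown mice that carry amyloid were set against microglia of healthy control mice: 5 Slc11a2KD APP/PS1 samples against 6 Control WT samples, 11 of the 23 samples of the series, taken by their labels. The comparison asks how far knockdown microglia in an amyloid brain lie from the healthy state, by function and gene. Every mouse was female and carried Slc11a2flfl;Cx3cr1Cre-ERT2+/- on a mixed 129S;C57BL/6J background, so the controls carry the floxed alleles and the Cre as well. At an age of 5 to 6 months, Slc11a2KD mice were gavaged daily with 4 mg tamoxifen for 5 days, and Control mice with 200 µL corn oil. APP/PS1 mice were hemizygous for the amyloid transgenes, WT mice were their littermates, and all were euthanized at 15 to 18 months. CD11b-positive cells were sorted magnetically from both hippocampi after a Percoll gradient and sequenced in bulk, 1 library per sample. The remaining groups, 6 Control APP/PS1 and 5 Slc11a2KD WT samples, entered the same fit and are given where they place a value. Tamoxifen and knockdown go together in this design and cannot be told apart. Cre from the Cx3cr1 locus also acts in Cx3cr1-positive macrophages outside the parenchyma, and a CD11b sort takes these and blood leukocytes too.

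Microglia are the resident macrophages of the brain. In the healthy brain they hold a homeostatic program (Tmem119, P2ry12, Cx3cr1) kept up by TGF-beta signalling, and near amyloid plaques they take on a disease-associated program of lipid, lysosome and phagocytic genes (Apoe, Trem2, Cst7, Itgax, Clec7a). Slc11a2 encodes the divalent metal transporter DMT1, which moves ferrous iron across the plasma and endosomal membranes. Imported iron is stored in ferritin or leaves through ferroportin (Slc40a1), and it feeds the prolyl hydroxylases that hold down HIF-1, the mitochondrial chain and the peroxide chemistry that glutathione peroxidases contain.

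The targeted gene comes first. Slc11a2 measured 37.8, 52.1, 59.2, 75.1 and 58.2 CPM in Slc11a2KD APP/PS1 samples 4, 18, 20, 21 and 23 (the order used throughout), against 29.9 to 43.7 CPM (median 33.5) in Control WT. CPM are counts scaled to a common library total after TMM scaling. The gene total was higher in the knockdown group, by a log2 fold change 0.69 ± 0.14, adjusted p = 0.00169, with overlap between sample 4 and Control WT. The groups differ in amyloid and in knockdown, which this comparison cannot tell apart. The call was lost in a fit with library numbers 18 to 23 as a term, described below. Fold changes are given on the log2 scale as Slc11a2KD APP/PS1 over Control WT, with their standard error, and adjusted p-values come from edgeR's quasi-likelihood test with Benjamini-Hochberg adjustment over 18759 genes. A total over all exons cannot show the loss of floxed exons, so it does not check the knockdown, and the grouping used here rests on the labels. The study tested the floxed exons by RT-qPCR in isolated microglia. It also reports lost expression over these exons in the sequenced knockdown microglia. Neither measurement was analysed here.

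Depth ran from 34337445 to 52187984 counts in Slc11a2KD APP/PS1 and from 31128530 to 44311296 in Control WT. Within both groups every pair of samples differed by more than counting noise (chi-square per degree of freedom 32.5 or more). The libraries stood apart in how short and long transcripts were represented. The median deviation from Control WT of the shortest quintile of transcripts minus that of the longest quintile, over 11866 genes of at least 1 CPM, was -0.09, 0.62, 1.07, 1.80 and 1.49 on the log2 scale in the Slc11a2KD APP/PS1 samples and -0.19 to 0.24 in Control WT. Sample 4 thus lay within the control range and the other 4 samples above it. The Slc11a2 total was likewise lowest in sample 4 and highest in sample 21. In the shortest decile of transcripts (median 828 bases) the median log2 fold change was 0.72 and 46.1% of genes were called higher, and in the longest decile (median 8385 bases) it was -0.49 and 4.13% were called higher. For this reason counts are also given with a length offset, a fit in which a smooth curve of transcript length was removed from each library. With it, the same medians were 0.04 and -0.07. Library numbers 1 to 4 and 18 to 23 hold no Control sample, so whatever goes with these numbers and the knockdown cannot be told apart.

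**Figure D1:**
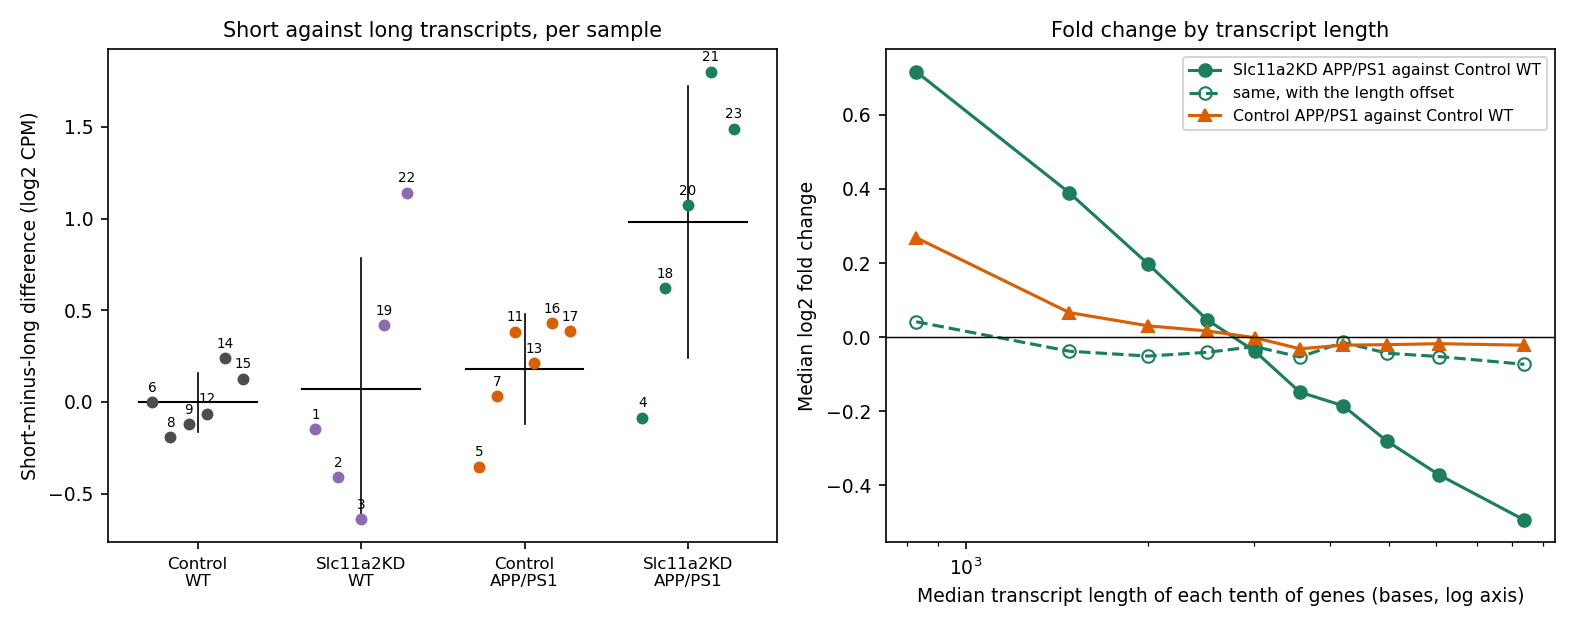
Short-minus-long transcript level of each sample (log2, vertical axis) in the 4 groups; points are samples, lines group means and vertical bars ± 1 SD. Slc11a2KD APP/PS1 4 sits among the controls at -0.09, and the other 4 samples of its group lie between 0.62 and 1.80.

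Microglial markers dominated every library. The 9 measured microglial markers summed to 34962 to 39734 CPM in Slc11a2KD APP/PS1 and 40894 to 47790.5 CPM in Control WT. Markers of other cells were low and uneven. Choroid plexus epithelium markers summed to 38.8 to 553 CPM in Slc11a2KD APP/PS1 and 38.4 to 2188 CPM in Control WT, where samples 12 and 15 held the most. Transthyretin (Ttr), the main secreted protein of that epithelium, measured 0.230, 166, 219, 64.4 and 378 CPM in the knockdown samples and 0 to 996 CPM (median 0) in Control WT. The autotaxin gene Enpp2, which the same epithelium makes, measured 1.67, 80.7, 83.5, 16.9 and 77.8 CPM and 1.09 to 729 CPM (median 4.58). Neither Ttr nor Enpp2 passed the test (adjusted p = 0.831 and 0.36), and no choroid plexus marker of 21 did. Without Control WT 12 and 15, 9 of the 21 were higher, and 12 of 21 without Slc11a2KD APP/PS1 4 as well. A fit with library numbers 18 to 23 as a term, described below, went the other way, with 0 higher and 4 lower (median -6.48). DESeq2 called 0 higher and 1 lower. Control WT 14 held the highest healthy level of many disease-associated genes, such as Clec7a, Itgax and Gpnmb, and without it 28 of 34 disease-associated genes were higher against 27 with it. Neuronal marker sums were 12.2 to 16.4 CPM against 21.1 to 44.6 CPM. Border-associated macrophage markers summed to 290.3 to 468 CPM against 500.3 to 1067 CPM.

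**Figure D2:**
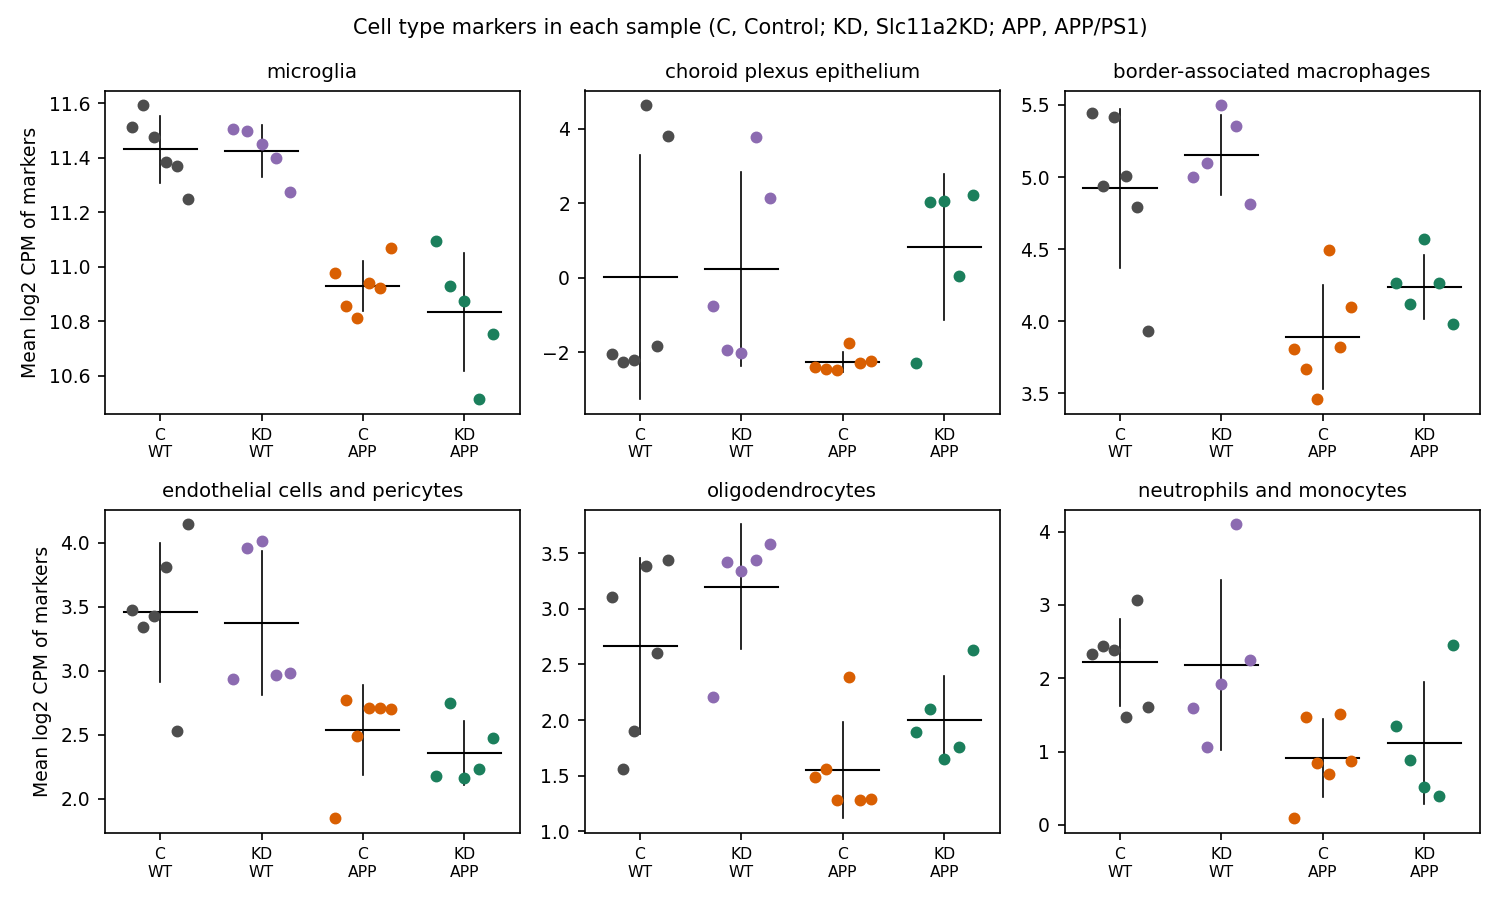
Mean log2 CPM of the marker genes of 6 cell types (vertical axes) in each sample of the 4 groups; points are samples, lines means and bars ± 1 SD. Microglial markers lie far above all others, and choroid plexus markers spread over several log2 units within both groups compared.

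Against Control WT, 2276 of 18759 genes (12.1% of those tested) were higher in Slc11a2KD APP/PS1 and 1402 (7.47%) lower. Of these, 894 were more than 2-fold higher and 427 more than 2-fold lower. All 5 knockdown samples lay above all 6 Control WT samples for 1057 genes (5.63%) and below them for 570 (3.04%). The median log2 fold change over all genes was -0.06. With the length offset, 1396 of the genes called higher and 1030 of those called lower were still called in the same direction. That fit called 1757 of the 18759 genes higher and 1417 lower in all, the background for list counts with the offset. For list counts without it the background is 12.1% higher and 7.47% lower. Without Slc11a2KD APP/PS1 4 and Control WT 12 and 15 together, 2022 of the genes called higher stayed called. The higher count was 1489 without Slc11a2KD APP/PS1 21. The lower count was 2562 without sample 4 of that group, 925, 855 and 888 without 20, 21 and 23, and 928 without Control WT 12 and 15. Control APP/PS1 against the same Control WT samples had 1124 genes higher (5.99%) and 841 lower (4.48%). These calls share their control samples with the comparison reported here and are set beside it as values only.

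Library numbers 18 to 23 hold 4 of the 5 Slc11a2KD APP/PS1 samples, and Slc11a2KD WT 19 and 22. A fit with these numbers as a term removes 1 shift common to both knockdown groups. That shift is estimated within each knockdown group, so Slc11a2KD WT 1, 2 and 3 against 19 and 22 enter it too. The comparison then rests on sample 4 and, through that shift, on the later samples and Slc11a2KD WT. This fit called 414 genes higher and 244 lower. Disease-associated genes then had 23 higher and 0 lower, homeostatic genes 1 higher and 11 lower, hypoxia and glycolysis genes 13 higher and 0 lower and cholesterol synthesis genes 7 higher and 0 lower. Lysosomal membrane and pump genes had 8 higher and 0 lower, cathepsins, hydrolases and their inhibitors 12 higher and 1 lower, iron genes 3 higher and 1 lower and cell cycle genes 0 higher and 0 lower. Lipid efflux and droplet genes had 7 higher and 2 lower, Fc, scavenger and phagocytic receptors 6 higher and 1 lower, inhibitory and SLAM receptors 7 higher and 2 lower, complement genes 2 higher and 1 lower and heat shock chaperones 3 higher and 0 lower. TGF-beta and lineage factors had 3 higher and 2 lower, Alzheimer risk genes 2 higher and 1 lower, interferon-stimulated genes 1 higher and 0 lower, immediate early and NF-kB genes 0 higher and 0 lower and NADPH oxidase genes 0 higher and 0 lower. Endothelial and pericyte markers had 0 higher and 1 lower and border-associated macrophage markers 0 higher and 1 lower. Of the named genes called, 80 lost the call in this fit, among them Slc11a2, Csf1r, Cx3cr1, Sall1, Ctss, Fth1, Ncoa4, Gpx4, Gpx1, Cyba, Tyrobp, Lgals3 and Mrc1.

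Between the amyloid groups, Slc11a2KD APP/PS1 against Control APP/PS1, edgeR called 0 genes in either direction, with a smallest adjusted p of 0.205 and 3862 genes (20.6%) at an unadjusted p under 0.05. DESeq2 on the same samples called 449 higher and 131 lower, and limma voom 0 higher and 2 lower. Without Slc11a2KD APP/PS1 4 edgeR called 1373 higher and 1696 lower, and 829 and 590 with the length offset. The number of genes called between the amyloid groups thus depended on the tool and on sample 4.

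Each sample was placed on a line from the mean Control WT profile, at 0, to the mean Control APP/PS1 profile, at 1, over all genes tested. The Slc11a2KD APP/PS1 samples lay at 0.813, 0.817, 0.836, 0.875 and 0.708 (mean 0.810 ± 0.0619, SD, n = 5). Control samples projected on a line made without them lay at 0.119 to 0.470 (mean 0.288, n = 6) for Control WT and at 0.734 to 0.959 (mean 0.858, n = 6) for Control APP/PS1. The held-out controls show how far a sample of known group falls short of 0 or 1 on this line. The knockdown samples fell within the range of the held-out Control APP/PS1 samples, apart from sample 23, which lay below it, and none came near Control WT. Slc11a2KD WT samples lay at 0.138 to 0.256. The placement is a description with no test.

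**Figure D3:**
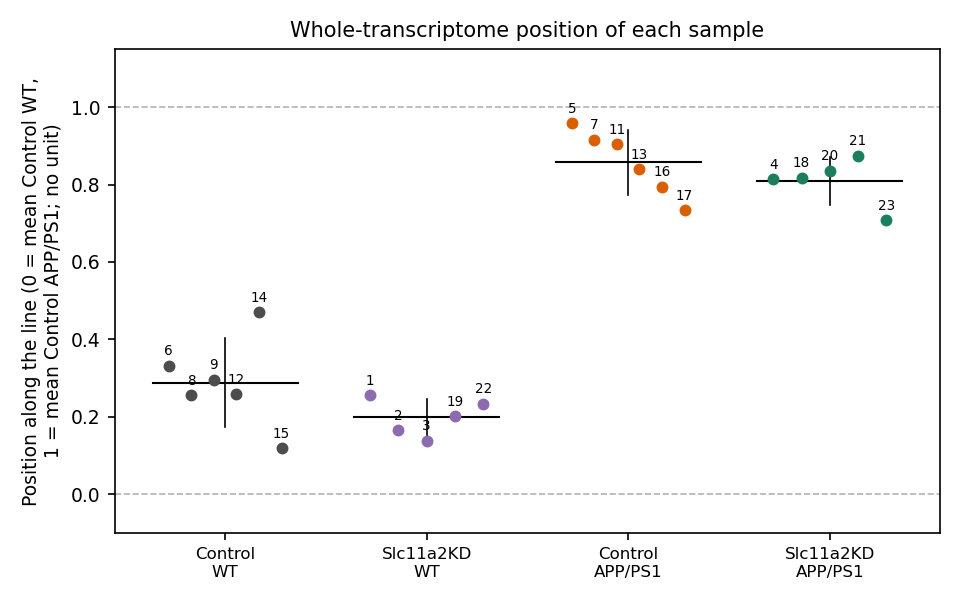
Position of each sample between the mean Control WT profile (0) and the mean Control APP/PS1 profile (1), without units; points are samples, lines means and bars ± 1 SD, with Control samples projected on a line made without them. The 5 Slc11a2KD APP/PS1 samples lie between 0.708 and 0.875.

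The disease-associated microglia program had the largest median change of the 25 function lists. Of 34 measured members 27 rose and 0 fell, with a median log2 fold change of 1.72 against -0.06 over all genes, and 23 showed no overlap between the groups. With the length offset 23 were higher and 1 lower (median 1.64), and against Control WT, Control APP/PS1 had 27 higher and 0 lower (median 1.67). The mean log2 CPM over the list was 8.38 to 8.81 in Slc11a2KD APP/PS1 and 5.91 to 7.48 in Control WT. Igf1, a growth factor that activated microglia secrete, measured 106, 224, 281, 276 and 236 CPM against 7.21 to 17.9 CPM (median 8.44) (log2 fold change 4.43 ± 0.31, adjusted p = 2.37e-09). Ank, which carries pyrophosphate and citrate out of the cell, measured 985, 999, 908, 851 and 884 CPM against 76.8 to 163 CPM (median 97.2) (log2 fold change 3.09 ± 0.20, adjusted p = 1.70e-09). Both genes were at least several times the highest control in each knockdown sample. Clec7a, the beta-glucan receptor Dectin-1, measured 516, 523, 568, 374 and 417 CPM against 28.8 to 127 CPM (median 35.1), the highest control being sample 14 (log2 fold change 3.22 ± 0.32, adjusted p = 2.55e-07).

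Cd63, a tetraspanin of late endosomes, measured 1477, 2292, 3018, 3638 and 2617 CPM against 379 to 731 CPM (median 443) (log2 fold change 2.43 ± 0.20, adjusted p = 1.97e-08). Itgax, the integrin CD11c, measured 229, 233, 184, 113 and 95.9 CPM against 19.6 to 92.9 CPM (median 26.3) (log2 fold change 2.25 ± 0.42, adjusted p = 0.000625). Csf1, the ligand of the main microglial survival receptor, measured 201, 128, 119, 94.3 and 78.0 CPM against 16.3 to 89.8 CPM (median 24.8) (log2 fold change 1.79 ± 0.37, adjusted p = 0.00151). Itgax and Csf1 were lowest in samples 21 and 23, Csf1 falling below control sample 14 in sample 23, and their Control APP/PS1 levels were 307 ± 185 CPM and 208 ± 48.02 CPM (mean ± SD, n = 6). Trem2, the lipid receptor that licenses this program, measured 2156, 2262, 2540.1, 2798 and 2130.5 CPM against 1315 to 1777 CPM (median 1395) (log2 fold change 0.72 ± 0.11, adjusted p = 6.60e-05), a call that the length offset did not keep (0.18, adjusted p = 0.35).

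Apoe, the main lipid carrier of glia, was one of the 7 members not called. It measured 893, 741, 609, 552 and 547 CPM against 471 to 665 CPM (median 592) in Control WT (log2 fold change 0.19 ± 0.29, adjusted p = 0.689), so that samples 20, 21 and 23 lay inside the healthy range and samples 4 and 18 above it. Control APP/PS1 stood at 1452 ± 858 CPM. The difference between the amyloid groups was -1.12 ± 0.29, unadjusted p = 0.000865, which edgeR did not call after adjustment. B2m, the light chain of MHC class I, measured 2391, 2091, 1934, 2196 and 1661 CPM against 1803 to 2249.5 CPM (median 1998) (log2 fold change 0.03 ± 0.10, adjusted p = 0.861), and with the length offset it was lower (-0.47, adjusted p = 0.0385). Spp1, osteopontin, ranged from 104 to 598 CPM against 6.51 to 415 CPM (log2 fold change 2.11 ± 0.88, adjusted p = 0.0915), and passed the test without Control WT 14 (adjusted p = 0.000715).

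Other members, named after their values were seen, spanned a wide range. Among the lipid-handling members, Fabp5 measured 75.9, 385, 321, 414 and 253 CPM against 1.80 to 15.7 CPM (median 3.80) (log2 fold change 5.68 ± 0.57, adjusted p = 2.72e-07), and Lpl, lipoprotein lipase, 189, 193, 255, 162 and 125 CPM against 9.91 to 84.8 CPM (median 12.4) (log2 fold change 2.87 ± 0.52, adjusted p = 0.000485). Ch25h, which makes 25-hydroxycholesterol, rose by 3.99 on the log2 scale and Cst7, the cathepsin inhibitor cystatin F, by 4.56. Dkk2, a secreted Wnt regulator, rose by 5.84 on that scale, and Axl, a receptor for dying cells, by 2.22. Cd9, a tetraspanin, rose by 1.65 on that scale and the lectin gene Lgals3 by 2.42. Tyrobp, the signalling partner of Trem2, was higher by 0.54 ± 0.14, adjusted p = 0.00803, and was not called with the length offset (-0.19, adjusted p = 0.128).

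Several genes went from near silence to clear expression. By size of change among genes without overlap, the 12 largest were Wif1, Yipf7, Gm38335, Mamdc2, Trpm1, Lgi2, Tcap, Baiap2l2, Gpnmb, Asb11, Apoc4 and Fabp3. Mamdc2, on chromosome 19, measured 88.3, 187, 169, 169 and 163 CPM against 0.224 to 1.24 CPM (median 0.674) (log2 fold change 7.85 ± 0.67, adjusted p = 2.94e-08). Baiap2l2, a membrane-bending protein, measured 54.0, 65.7, 68.0, 71.4 and 91.1 CPM against 0 to 2.31 CPM (median 0.294) (log2 fold change 6.67 ± 0.67, adjusted p = 3.03e-07). Gpnmb, a lysosomal glycoprotein of lipid-laden macrophages, measured 65.8, 335, 204, 241 and 152 CPM against 0 to 10.1 CPM (median 0.369) (log2 fold change 6.58 ± 1.18, adjusted p = 0.000412). Fabp3, a fatty acid carrier, measured 25.5, 45.1, 66.5, 98.3 and 67.7 CPM against 0.0840 to 1.65 CPM (median 0.836) (log2 fold change 6.14 ± 0.60, adjusted p = 1.78e-07). Sample 4 was the lowest of the knockdown group for Mamdc2, Gpnmb and Fabp3 but stayed above every control.

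Trpm1, a cation channel gene, ran from 15.2 to 22.9 CPM against 0 to 0.644 CPM and Lgi2, a secreted leucine-rich protein, from 23.04 to 33.0 CPM against 0 to 0.560 CPM. Tcap ran from 6.05 to 9.996 CPM against 0 to 0.372 CPM, Asb11 from 1.34 to 6.19 CPM against 0 to 0.280 CPM and Apoc4, an apolipoprotein, from 0.605 to 11.4 CPM against 0 to 0.339 CPM. Their log2 fold changes were 6.77, 6.73, 6.70, 6.56 and 6.46. All 6 Control WT samples held 0 counts of Wif1, Yipf7 and Gm38335. Taking 3 counts per library as the floor, Wif1, a secreted Wnt inhibitor, was at least 133-fold higher, Yipf7 at least 125-fold and Gm38335 at least 46.9-fold. Wif1 measured 0.730, 23.6, 8.69, 6.18 and 12.8 CPM and Yipf7 1.09, 8.58, 10.001, 21.1 and 8.04 CPM, sample 4 being the lowest of both. Gm38335 ran from 0.772 to 6.62 CPM. Control APP/PS1 means for these 3 genes were 7.06, 6.36 and 2.07 CPM.

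Cd5, a scavenger-type surface receptor best known from T cells and B-1 cells, belonged with these genes by its pattern. It measured 8.39, 9.79, 9.73, 7.05 and 9.61 CPM against 0 to 0.701 CPM (median 0.526) (log2 fold change 4.40 ± 0.51, adjusted p = 1.80e-06), with no overlap, beside 10.1 ± 2.48 CPM in Control APP/PS1. Of the 12 measured T and NK cell markers, which include Cd5, 1 (Cd5) was higher and 1 lower (1 and 2 with the length offset), and the summed level was 15.02 to 29.5 CPM against 9.63 to 40.4 CPM. Ccr6, a chemokine receptor, measured 0.417, 0.474, 0.899, 18.7 and 0.257 CPM against 0 to 1.65 CPM (median 0.996) (log2 fold change 2.17 ± 1.17, adjusted p = 0.195), with sample 21 alone above the controls. The Cd5 promoter window from RefSeq (GRCm38.p6, chr19:10738925-10739224, minus strand, 5' to 3' in gene orientation) is shown as 1 example. Cd5 stayed under 1 CPM in every healthy sample, as did other genes named above. Capitals mark GAGGAAGT, a sequence the myeloid factor PU.1 is known to bind, 53 bases before the start. On either strand, this motif occurs in 3.20% of all promoter windows of that length and in 3.69% of gene symbols. It occurs in 0 of 14 genes of largest change with a window, Cd5 not among them. In disease-associated genes it occurs in 1 of 27.

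Cd5: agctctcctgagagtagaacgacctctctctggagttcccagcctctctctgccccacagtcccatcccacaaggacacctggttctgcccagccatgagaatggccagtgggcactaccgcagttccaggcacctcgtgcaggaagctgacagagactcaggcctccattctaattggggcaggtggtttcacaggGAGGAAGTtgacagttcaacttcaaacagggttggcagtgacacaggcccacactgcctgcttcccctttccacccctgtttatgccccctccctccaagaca

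**Figure D4:**
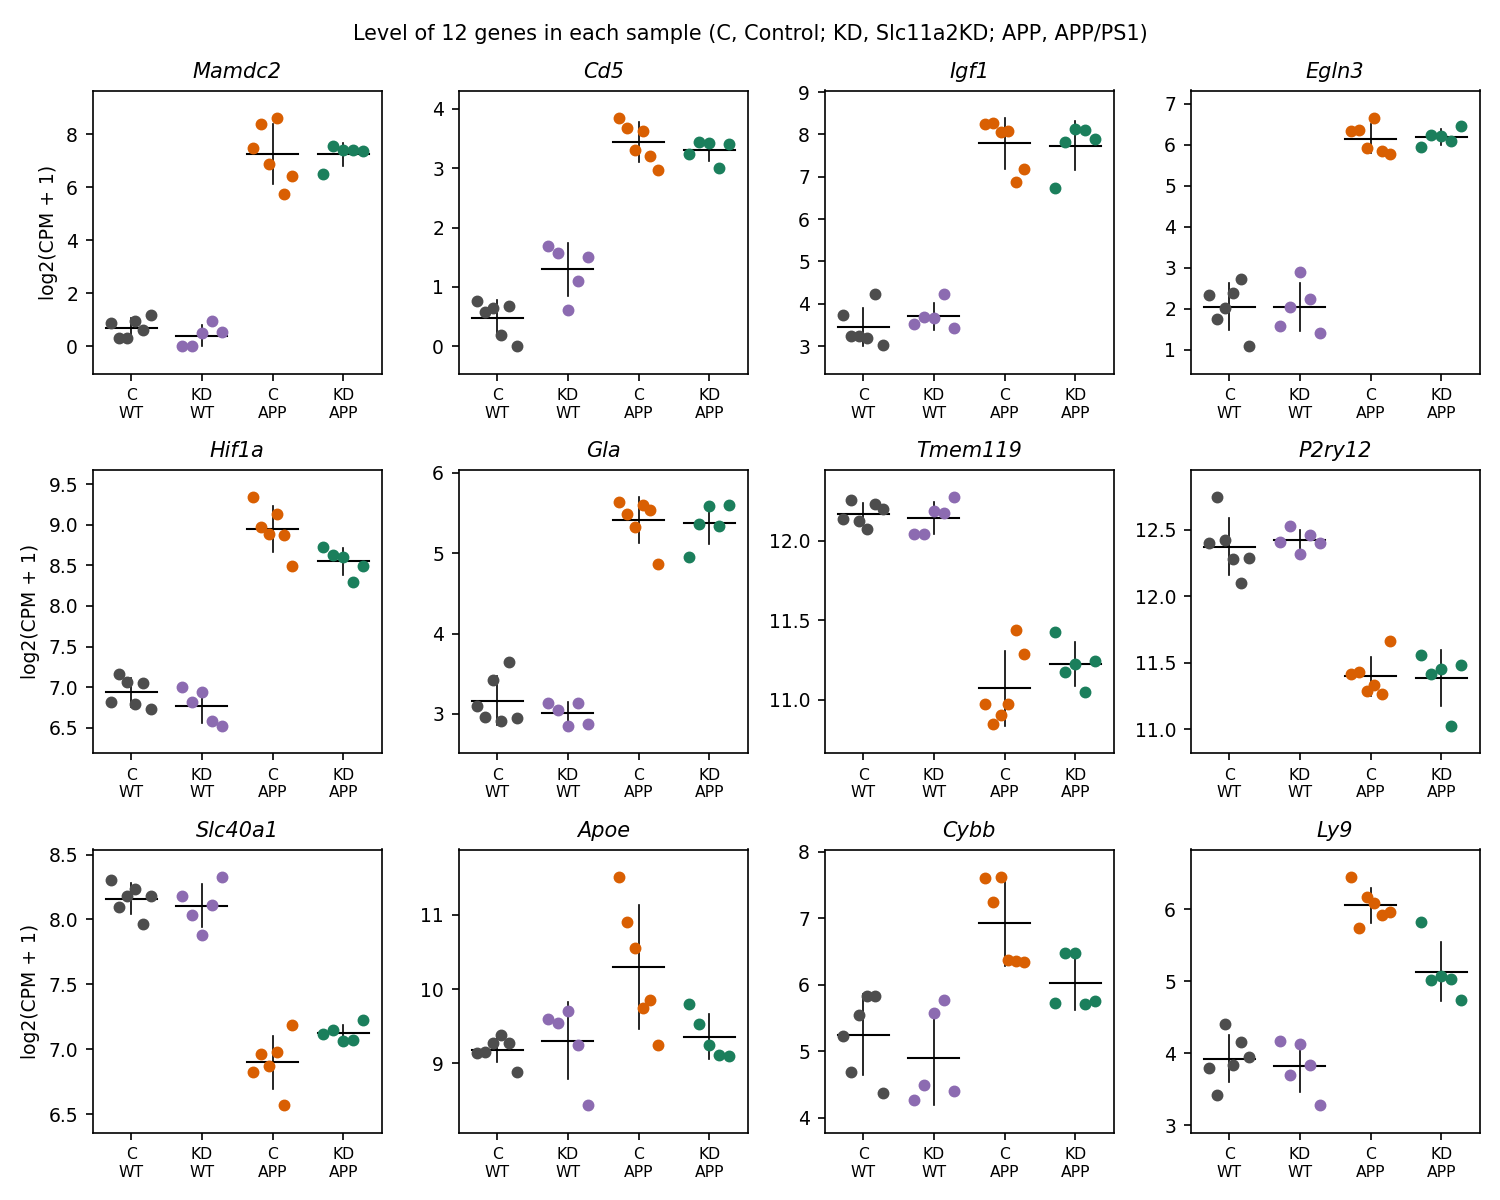
Level of 12 named genes, log2(CPM + 1) on the vertical axis of each panel (scales differ), in each sample of the 4 groups; points are samples, lines means and bars ± 1 SD. Mamdc2, Cd5, Igf1, Egln3, Hif1a and Gla lie above Control WT in every Slc11a2KD APP/PS1 sample, and Tmem119, P2ry12 and Slc40a1 below it.

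Homeostatic genes lay below the healthy level. Of 33 measured members 25 fell and 0 rose (median -0.71), 13 of them without overlap. With the length offset 1 was higher and 22 lower (median -0.61), and against Control WT, Control APP/PS1 had 2 higher and 17 lower (median -0.46). Tmem119, a microglial membrane protein, measured 2757, 2308, 2393, 2119 and 2423 CPM against 4319.9 to 4898 CPM (median 4603) (log2 fold change -0.94 ± 0.11, adjusted p = 1.54e-06). P2ry12, the ADP receptor of surveying processes, measured 3009, 2724, 2796, 2082 and 2861 CPM against 4384 to 6845 CPM (median 5202) (log2 fold change -0.99 ± 0.12, adjusted p = 2.19e-06). Cystatin C (Cst3), a secreted protease inhibitor and one of the most abundant microglial transcripts, measured 10064, 9969, 9265, 9201 and 9288 CPM against 15649 to 23661 CPM (median 18631) (log2 fold change -1.01 ± 0.12, adjusted p = 3.05e-06). Every knockdown sample lay below every healthy sample for these 3 genes. In bulk RNA, fewer cells of a type and less RNA per cell cannot be told apart.

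Tgfbr1, the TGF-beta receptor kinase, measured 3695, 3371, 3688, 3086 and 3265 CPM against 4401 to 5216 CPM (median 4801) (log2 fold change -0.50 ± 0.09, adjusted p = 0.00035), and was not called with the length offset (-0.14, adjusted p = 0.581). The fractalkine receptor Cx3cr1, which the Cre allele disrupts in all groups alike, measured 2152, 1809, 1615, 1178 and 1673 CPM against 2502 to 3278 CPM (median 2685) (log2 fold change -0.71 ± 0.13, adjusted p = 0.000446). Siglech, a sialic acid lectin, was lower by -0.54 ± 0.13, adjusted p = 0.00418. Csf1r, the receptor of Csf1, measured 5237, 3667, 2956, 1559 and 2289 CPM against 4077 to 6085 CPM (median 5222) (log2 fold change -0.72 ± 0.22, adjusted p = 0.0228), with sample 4 inside the healthy range, and lost its call without Slc11a2KD APP/PS1 21 or 23 (adjusted p = 0.062 to 0.0662). Sall1, the transcription factor that keeps microglial identity, measured 233, 159, 129, 48.6 and 58.1 CPM against 196 to 298 CPM (median 279.7) (log2 fold change -1.05 ± 0.30, adjusted p = 0.0148). Bin2, a membrane-shaping adaptor, measured 68.3, 43.8, 34.5, 12.9 and 15.6 CPM against 54.3 to 94.6 CPM (median 68.9) (log2 fold change -1.03 ± 0.34, adjusted p = 0.0357) and lost its call without Slc11a2KD APP/PS1 20, 21 or 23 or Control WT 8, 9 or 12 (adjusted p = 0.054 to 0.0941). Csf1r, Sall1 and Bin2 were highest in sample 4 and lowest in samples 21 and 23, which hold the lowest and the 2 highest short-minus-long transcript levels of the group. With the length offset the changes were -0.45, adjusted p = 0.00602 for Csf1r, -0.86, adjusted p = 0.00303 for Sall1 and -1.05, adjusted p = 0.0279 for Bin2, all called.

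The 12 genes of largest fall without overlap were Gm44164, Krt80, Bcat1, Fam181b, Bnip5, Adcy8, Itgae, Ptger3, Efnb2, Gpr165, Gbp7 and Ahr. Gpr165, an orphan receptor, measured 14.3, 17.8, 16.2, 13.1 and 15.7 CPM against 42.5 to 164 CPM (median 60.9) (log2 fold change -2.36 ± 0.37, adjusted p = 9.48e-05). Adcy8, an adenylate cyclase, measured 2.34, 4.68, 1.77, 1.23 and 1.57 CPM against 9.51 to 26.8 CPM (median 12.4) (log2 fold change -2.71 ± 0.40, adjusted p = 5.53e-05). Ptger3, a prostaglandin E2 receptor, measured 1.92, 1.40, 2.26, 2.26 and 5.17 CPM against 9.16 to 20.1 CPM (median 14.6) (log2 fold change -2.50 ± 0.39, adjusted p = 8.80e-05). Efnb2, the ephrin-B2 ligand, ran from 1.08 to 2.80 CPM against 6.26 to 15.2 CPM, and the guanylate-binding protein Gbp7 from 0.932 to 4.97 CPM against 7.93 to 15.5 CPM. Itgae, the integrin CD103, ran from 0.436 to 1.04 CPM against 2.09 to 6.89 CPM, and Bcat1, a branched-chain aminotransferase, from 0.209 to 0.514 CPM against 1.67 to 5.66 CPM. The log2 fold changes of Efnb2, Gbp7, Itgae and Bcat1 were -2.36, -2.25, -2.51 and -2.94.

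The rest of these genes were rarer still, Gm44164 reaching 5.22 CPM at most. Ahr, the aryl hydrocarbon receptor, changed by -2.24 ± 0.64, adjusted p = 0.0166 and Fam181b by -2.80 ± 0.75, adjusted p = 0.011. Gm44164 changed by -3.43 ± 1.02, adjusted p = 0.0202 and lost its call without Control WT 8 (adjusted p = 0.0512). Krt80, a keratin gene, changed by -3.06 ± 0.93, adjusted p = 0.0235 and lost its call without Control WT 9 (adjusted p = 0.0604). Bnip5 changed by -2.73 ± 0.93, adjusted p = 0.0416 and lost its call without Slc11a2KD APP/PS1 20, 21 or 23 or Control WT 6, 9 or 15 (adjusted p = 0.0552 to 0.0973).

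**Figure D5:**
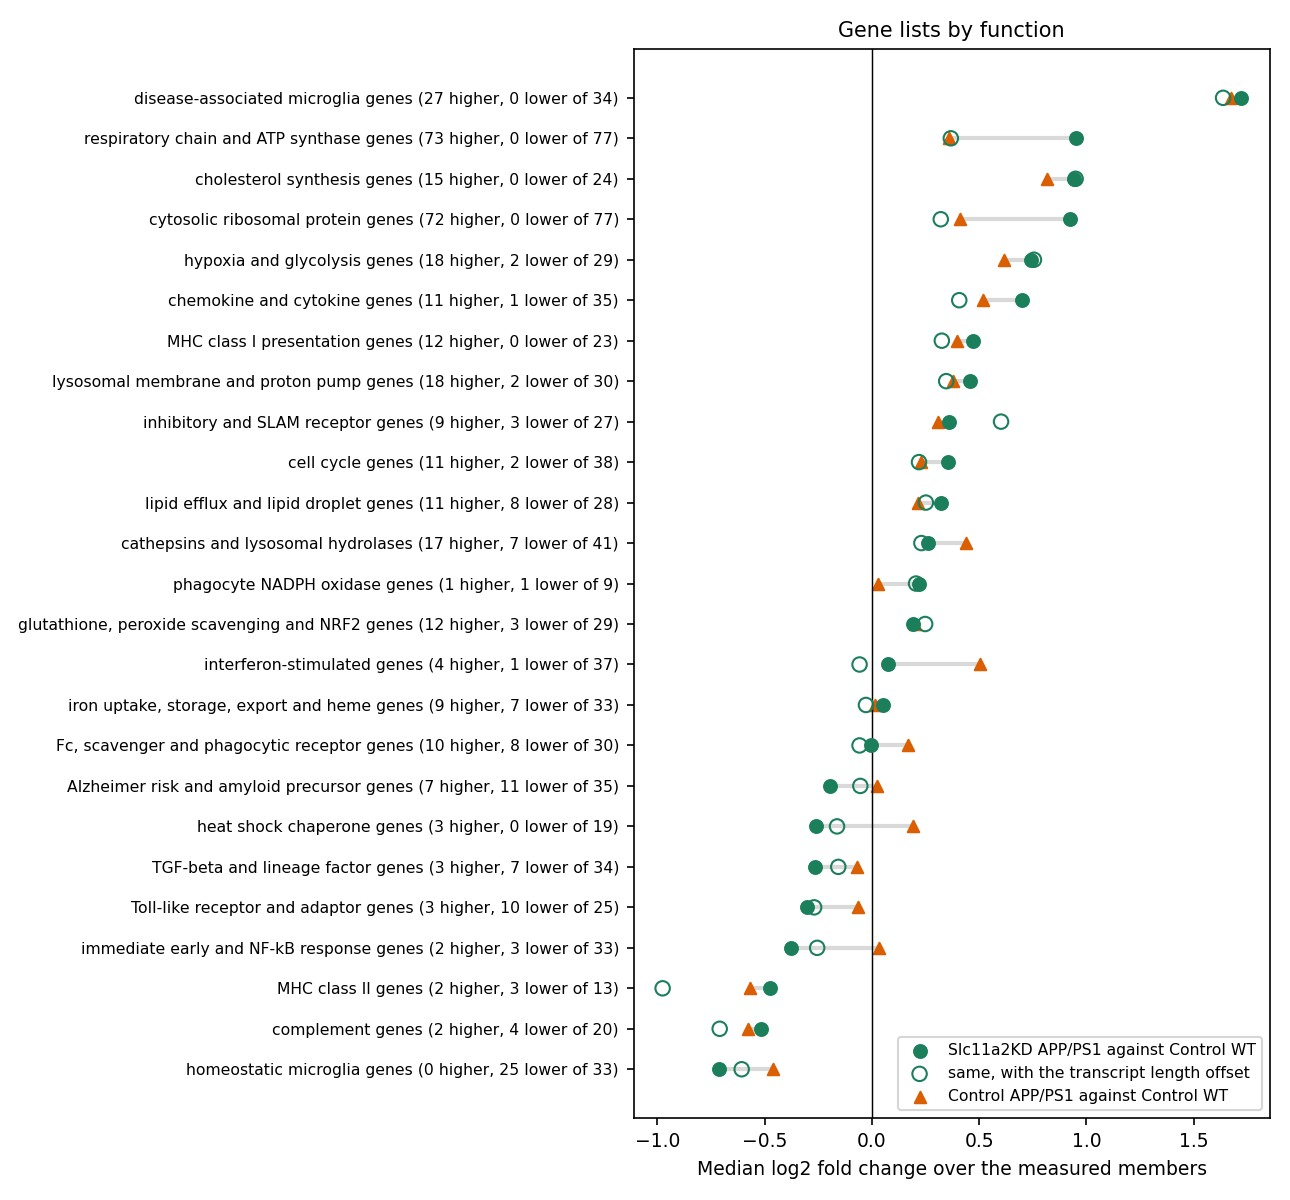
Median log2 fold change against Control WT over the measured members of each function list (horizontal axis), for Slc11a2KD APP/PS1 (filled circles), the same with the length offset (open circles) and Control APP/PS1 (triangles), which share the Control WT samples; counts called for Slc11a2KD APP/PS1 stand beside each name. Disease-associated genes lie farthest right at 1.72 and homeostatic genes farthest left of the filled circles at -0.71.

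Of 30 measured lysosomal membrane and proton pump genes 18 rose and 2 fell (median 0.46), with the length offset 15 were higher and 2 lower (median 0.35), and against Control WT, Control APP/PS1 had 13 higher and 2 lower (median 0.38). Of 41 cathepsins, hydrolases and their inhibitors 17 rose and 7 fell (median 0.26), with the length offset 15 were higher and 7 lower (median 0.23), and against Control WT, Control APP/PS1 had 22 higher and 4 lower (median 0.44). Gla, the alpha-galactosidase whose loss causes Fabry disease, measured 30.1, 40.3, 47.3, 39.5 and 47.4 CPM against 6.51 to 11.5 CPM (median 7.18) (log2 fold change 2.33 ± 0.17, adjusted p = 5.64e-09). Gusb, beta-glucuronidase, measured 644, 787, 677, 625 and 686 CPM against 251 to 346 CPM (median 268) (log2 fold change 1.30 ± 0.11, adjusted p = 4.49e-08). Cd68, a lysosomal glycoprotein used as a marker of phagocytic microglia, measured 853, 870.4, 907, 672 and 799.7 CPM against 361 to 474 CPM (median 395) (log2 fold change 1.003 ± 0.11, adjusted p = 9.84e-07). Gla, Gusb and Cd68 showed no overlap.

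Ctsb, the cathepsin of late endosomes, measured 4671, 3409, 3227, 2223 and 2260.2 CPM against 1840.1 to 2115 CPM (median 1933) (log2 fold change 0.69 ± 0.17, adjusted p = 0.00637), with sample 4 near Control APP/PS1 (4529 ± 755 CPM) and samples 21 and 23 just above the healthy range. Ctss, the cathepsin that processes the MHC class II chaperone, measured 4928, 3973, 2757, 1904 and 2129 CPM against 5140.5 to 7328 CPM (median 6041) (log2 fold change -0.95 ± 0.19, adjusted p = 0.00125). Ctsd, the aspartyl cathepsin, measured 5861, 5089.8, 4095, 3826 and 3910.2 CPM against 3072 to 4073 CPM (median 3455) (log2 fold change 0.38 ± 0.13, adjusted p = 0.0474). The Ctsd call was lost without Slc11a2KD APP/PS1 4, 18 or 20 or Control WT 6, 8, 9, 12 or 15 (adjusted p = 0.0591 to 0.126) and with the length offset (0.21, adjusted p = 0.419). Ctsh rose by 0.56 on the log2 scale and was not called with the length offset (0.20, adjusted p = 0.104). Tfe3, one of the factors that drive lysosomal genes, measured 87.7, 83.4, 65.0, 58.0 and 63.6 CPM against 97.1 to 124 CPM (median 116) (log2 fold change -0.67 ± 0.13, adjusted p = 0.000752). Scarb2, the receptor that delivers glucocerebrosidase, was lower by -0.39 ± 0.11, adjusted p = 0.0123, a call not kept with the length offset (-0.14, adjusted p = 0.324). Atp6v0d2, a pump subunit of osteoclasts and activated macrophages named after its value was seen, measured 5.01, 28.5, 13.2, 27.8 and 18.2 CPM against 0 to 1.65 CPM (median 0.194) (log2 fold change 5.51 ± 0.94, adjusted p = 0.000256).

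CACGTGAC is the core of the CLEAR element, the sequence through which TFEB and TFE3 act on lysosomal genes. On either strand it occurs in 2.25% of 32851 RefSeq promoter windows (250 bases before to 50 after a gene's start), or 2.55% of 27025 gene symbols. Among the lysosomal lists with a window it occurs in 6 of 32 hydrolase genes (Arsa, Ctsa, Ctsd, Gla, Glb1 and Lgmn) and in 5 of 24 membrane and pump genes (Atp6v0b, Atp6v0d1, Clcn7, Lamp1 and Mcoln1). The core is not particular to these lists, and occurs in 3 of 17 cholesterol synthesis and 4 of 26 Alzheimer risk genes. In disease-associated genes it occurs in 1 of 27 and in homeostatic genes in 0 of 24. The promoters of 3 genes that rose are printed to show where the core lies. The Gla window (chrX:134600956-134601255, minus strand) holds it 196 bases before the start, the Mcoln1 window (chr8:3500269-3500568, plus strand) 73 and 45 bases before, and the Atp6v0b window (chr4:117887280-117887579, minus strand) 38 bases before. All are GRCm38.p6, 5' to 3' in gene orientation, with the core or its reverse complement in capitals.

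Gla: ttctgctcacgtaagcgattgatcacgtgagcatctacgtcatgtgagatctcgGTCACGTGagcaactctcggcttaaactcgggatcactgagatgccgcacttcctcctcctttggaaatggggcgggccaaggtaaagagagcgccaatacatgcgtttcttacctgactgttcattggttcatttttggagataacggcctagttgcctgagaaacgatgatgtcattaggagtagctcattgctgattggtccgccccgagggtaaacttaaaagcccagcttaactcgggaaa

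Mcoln1: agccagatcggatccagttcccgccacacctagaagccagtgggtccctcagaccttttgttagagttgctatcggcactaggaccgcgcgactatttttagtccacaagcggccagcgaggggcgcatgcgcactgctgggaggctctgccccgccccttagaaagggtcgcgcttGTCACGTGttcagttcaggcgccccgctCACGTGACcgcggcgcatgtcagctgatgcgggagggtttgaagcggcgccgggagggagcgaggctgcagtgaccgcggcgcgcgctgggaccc

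Atp6v0b: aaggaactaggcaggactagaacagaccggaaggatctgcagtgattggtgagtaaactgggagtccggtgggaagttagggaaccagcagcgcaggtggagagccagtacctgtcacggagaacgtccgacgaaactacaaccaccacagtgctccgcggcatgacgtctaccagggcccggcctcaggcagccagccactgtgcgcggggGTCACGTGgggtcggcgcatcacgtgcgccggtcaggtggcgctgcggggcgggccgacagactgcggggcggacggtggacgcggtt

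Mcoln1, the calcium and iron channel of the lysosome, measured 36.2, 41.3, 51.6, 40.4 and 50.8 CPM against 24.8 to 34.5 CPM (median 27.7) (log2 fold change 0.60 ± 0.12, adjusted p = 0.00102). Atp6v0b, a membrane subunit of the proton pump, measured 469.7, 646, 916, 1411 and 990.3 CPM against 348 to 513 CPM (median 393) (log2 fold change 1.12 ± 0.22, adjusted p = 0.000896), highest in sample 21. Their values with the length offset were 0.38, adjusted p = 0.015, and 0.48, adjusted p = 0.00276. A motif match describes the sequence and is no measure of binding.

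Most cholesterol synthesis genes lay above the healthy level. Of 24 measured members 15 rose and 0 fell (median 0.94), with the length offset 16 were higher and 0 lower (median 0.95), and against Control WT, Control APP/PS1 had 13 higher and 0 lower (median 0.82). Msmo1, a sterol demethylase, measured 75.4, 119, 152, 159 and 104 CPM against 38.4 to 63.8 CPM (median 46.0) (log2 fold change 1.34 ± 0.18, adjusted p = 1.21e-05). Dhcr7, which makes cholesterol from its last precursor, measured 52.9, 61.6, 73.2, 64.0 and 67.1 CPM against 25.8 to 39.1 CPM (median 32.9) (log2 fold change 0.95 ± 0.13, adjusted p = 1.27e-05). Ebp, the sterol isomerase and the most abundant member, measured 84.3, 96.9, 132, 153 and 119 CPM against 64.0 to 79.0 CPM (median 75.8) (log2 fold change 0.67 ± 0.15, adjusted p = 0.00292). Squalene epoxidase Sqle, named after its value was seen, measured 9.99, 14.8, 15.5, 4.36 and 10.9 CPM against 2.13 to 8.37 CPM (median 3.37) (log2 fold change 1.503 ± 0.41, adjusted p = 0.0124).

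Lipid efflux and droplet genes split. Of 28 measured members 11 rose and 8 fell (median 0.32), with the length offset 10 were higher and 6 lower (median 0.25), and against Control WT, Control APP/PS1 had 11 higher and 3 lower (median 0.21). Without Control WT 12 and 15 the split was 9 and 4. The lower count was 4 without Slc11a2KD APP/PS1 21 or 23 and 5 without Slc11a2KD APP/PS1 20 or Control WT 6, 8, 9, 12 or 15. Plin2, the coat of lipid droplets, measured 103, 113, 143, 173 and 141 CPM against 29.98 to 53.0 CPM (median 38.8) (log2 fold change 1.73 ± 0.15, adjusted p = 2.94e-08). Fabp3, given above, was the other of the 2 risers of smallest p. Cd36, a fatty acid and scavenger receptor, measured 6.86, 9.51, 17.7, 5.87 and 12.9 CPM against 22.6 to 33.2 CPM (median 29.1) (log2 fold change -1.43 ± 0.23, adjusted p = 0.000137). Pltp, the phospholipid transfer protein, measured 23.7, 37.5, 33.5, 22.2 and 48.7 CPM against 55.5 to 110.5 CPM (median 74.1) (log2 fold change -1.23 ± 0.23, adjusted p = 0.000667). Cd36 and Pltp stayed below every healthy sample.

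Iron genes moved in both directions. Of 33 measured members 9 rose and 7 fell (median 0.05), with the length offset 5 were higher and 8 lower (median -0.03), and against Control WT, Control APP/PS1 had 7 higher and 3 lower (median 0.01). Slc40a1, ferroportin, the only known cellular iron exporter, measured 138, 141, 133, 134 and 148 CPM against 249 to 316 CPM (median 289) (log2 fold change -1.04 ± 0.11, adjusted p = 3.03e-07). Ceruloplasmin (Cp), the oxidase that works with it, measured 5.59, 6.08, 3.32, 1.41 and 3.79 CPM against 8.29 to 18.5 CPM (median 12.3) (log2 fold change -1.63 ± 0.37, adjusted p = 0.00334), and Control APP/PS1 9.21 ± 3.93 CPM. On the storage side, the ferritin light chain Ftl1 measured 1767, 1904, 1868, 2123 and 1927 CPM against 832 to 1339.5 CPM (median 933) (log2 fold change 0.98 ± 0.10, adjusted p = 4.68e-07). The heavy chain Fth1 measured 3007, 3880.1, 3229, 3749 and 3433 CPM against 1473 to 2612 CPM (median 2149) (log2 fold change 0.75 ± 0.17, adjusted p = 0.00326), and was not called with the length offset (0.18, adjusted p = 0.421). Both ferritin genes have many processed pseudogenes, to which counting can lose reads. Slc11a1, the phagosomal paralog of the targeted gene, measured 643, 741, 736, 707 and 824 CPM against 299 to 400.1 CPM (median 354) (log2 fold change 1.05 ± 0.10, adjusted p = 1.76e-07).

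Ncoa4, the receptor that sends ferritin to the lysosome, measured 89.1, 70.3, 67.0, 47.4 and 60.9 CPM against 99.8 to 139 CPM (median 115) (log2 fold change -0.78 ± 0.14, adjusted p = 0.000538). Tfrc, the transferrin receptor, measured 19.7, 16.3, 16.9, 15.4 and 13.6 CPM against 17.1 to 23.4 CPM (median 20.01) (log2 fold change -0.31 ± 0.14, adjusted p = 0.121) and passed the test without Slc11a2KD APP/PS1 4 (adjusted p = 0.0491). Hmox1, heme oxygenase, measured 69.8, 79.8, 83.5, 84.3 and 79.9 CPM against 42.5 to 59.99 CPM (median 51.3) (log2 fold change 0.63 ± 0.10, adjusted p = 7.76e-05), and with the length offset 0.25, adjusted p = 0.154. Tfrc and Hmox1 were named after their values were seen. Ferroportin and Ncoa4 fell while both ferritin chains and Slc11a1 rose.

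Peroxide scavenging genes were higher for many members. Of 29 measured genes of the glutathione, peroxide and NRF2 list 12 rose and 3 fell (median 0.19), with the length offset 10 were higher and 2 lower (median 0.25), and against Control WT, Control APP/PS1 had 5 higher and 1 lower (median 0.20). With library numbers 18 to 23 as a term, 1 was higher and 0 lower. Gsto1, a glutathione transferase, measured 82.8, 95.8, 91.4, 102 and 85.2 CPM against 31.9 to 51.3 CPM (median 37.9) (log2 fold change 1.20 ± 0.16, adjusted p = 1.30e-05). Prdx6, a peroxiredoxin that also repairs oxidized lipid, measured 81.2, 96.0, 124, 158 and 129 CPM against 47.8 to 62.7 CPM (median 54.5) (log2 fold change 1.12 ± 0.17, adjusted p = 9.18e-05). Gpx4, the peroxidase that holds back ferroptosis, measured 276, 418, 569.6, 746 and 562 CPM against 198 to 251 CPM (median 228) (log2 fold change 1.20 ± 0.21, adjusted p = 0.000394), beside 321 ± 44.2 CPM in Control APP/PS1. Gpx1, its cytosolic relative, measured 653, 925, 1167, 1728 and 1414 CPM against 565 to 676 CPM (median 635) (log2 fold change 0.90 ± 0.21, adjusted p = 0.00404), and was not called with the length offset (0.28, adjusted p = 0.0912). Gpx4, Gpx1 and Prdx6 were lowest in sample 4 and highest in sample 21, as was the short-minus-long transcript level.

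Prdx1 rose by 1.19 and Sod1, cytosolic superoxide dismutase, by 1.06 on the log2 scale, both named after their values were seen. Gclc, the catalytic subunit of glutathione synthesis, measured 51.8, 39.4, 42.0, 26.4 and 33.0 CPM against 53.2 to 77.7 CPM (median 60.9) (log2 fold change -0.73 ± 0.15, adjusted p = 0.00169). Catalase (Cat) measured 74.9, 74.1, 59.6, 51.8 and 63.3 CPM against 78.8 to 103 CPM (median 86.0) (log2 fold change -0.45 ± 0.12, adjusted p = 0.0108). Nfe2l2, the NRF2 factor itself, measured 172, 122, 113, 82.9 and 87.5 CPM against 124 to 143 CPM (median 134) (log2 fold change -0.21 ± 0.18, adjusted p = 0.45), with sample 4 above the healthy range and the other 4 samples below it.

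Of 9 measured NADPH oxidase genes 1 rose and 1 fell (median 0.22), with the length offset 3 were higher and 1 lower (median 0.21), and against Control WT, Control APP/PS1 had 4 higher and 0 lower (median 0.03). The 1 and 1 are near the shares of all genes, 12.1% higher and 7.47% lower. Cyba, the small membrane subunit, measured 923, 1372, 2022, 2318 and 1787 CPM against 529 to 839 CPM (median 626) (log2 fold change 1.34 ± 0.20, adjusted p = 7.25e-05). Cybb, the catalytic subunit NOX2 on the X chromosome, measured 51.9, 87.9, 88.2, 51.4 and 52.9 CPM against 19.6 to 56.1 CPM (median 41.1) (log2 fold change 0.74 ± 0.33, adjusted p = 0.12). Cybb was called higher with the length offset (0.98, adjusted p = 0.0367). Control APP/PS1 stood at 130.5 ± 56.8 CPM for Cybb, and the amyloid groups differed by -0.97 ± 0.34, unadjusted p = 0.00859, which edgeR did not call after adjustment. Ncf1, the cytosolic organizer, measured 425, 311, 245, 269 and 308 CPM against 386 to 474 CPM (median 433) (log2 fold change -0.47 ± 0.14, adjusted p = 0.0198), and lost its call without Slc11a2KD APP/PS1 20 or 21 (adjusted p = 0.0527 to 0.0593). Of the membrane subunits, Cyba was above the healthy range in every sample, and Cybb overlapped it in samples 4, 21 and 23.

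Most hypoxia and glycolysis genes lay above the healthy level. Of 29 measured members 18 rose and 2 fell (median 0.74), with no overlap for 15 of the higher and 1 of the lower genes, with the length offset 19 were higher and 1 lower (median 0.76), and against Control WT, Control APP/PS1 had 18 higher and 1 lower (median 0.62). Egln3, a prolyl hydroxylase that marks HIF for destruction and is itself a HIF target, measured 60.6, 74.1, 73.4, 66.6 and 86.2 CPM against 1.12 to 5.65 CPM (median 3.56) (log2 fold change 4.40 ± 0.34, adjusted p = 9.82e-09). Hif1a measured 421, 396, 389.6, 313 and 361 CPM against 105 to 142 CPM (median 122) (log2 fold change 1.62 ± 0.13, adjusted p = 1.78e-08). The related Epas1, HIF-2 alpha, measured 5.97, 8.01, 3.32, 7.03 and 6.396 CPM against 13.8 to 35.2 CPM (median 18.4) (log2 fold change -1.74 ± 0.33, adjusted p = 0.000786). Epas1 is also an endothelial gene, and endothelial and pericyte markers summed to 108 to 189 CPM against 189.6 to 450.2 CPM. The part of these cells in the Epas1 value was not tested.

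Gapdh, the most abundant glycolytic gene, measured 1377, 1468, 1565, 1329 and 1769 CPM against 557 to 867 CPM (median 646) (log2 fold change 1.17 ± 0.12, adjusted p = 2.72e-07). Other steps, named after their values were seen, rose with it: Tpi1 by 1.66, Pgk1 by 1.61, Aldoa by 1.37, Pkm by 1.16 and lactate dehydrogenase Ldha by 1.44 on the log2 scale. The lactate exporter Slc16a3 measured 198, 261, 290.4, 274 and 316 CPM against 68.2 to 95.1 CPM (median 76.4) (log2 fold change 1.75 ± 0.18, adjusted p = 3.87e-07). Hk2, the inducible hexokinase at the entry of the pathway, measured 179.7, 130.2, 102, 87.1 and 82.5 CPM against 146 to 198 CPM (median 173) (log2 fold change -0.58 ± 0.20, adjusted p = 0.0396). It lost its call without Slc11a2KD APP/PS1 20, 21 or 23 or Control WT 6, 8, 9, 12 or 14 (adjusted p = 0.0538 to 0.107) and with the length offset (-0.18, adjusted p = 0.174). Vegfa, a secreted HIF target, measured 7.97, 3.85, 2.02, 9.39 and 8.29 CPM against 0.644 to 6.69 CPM (median 1.27) (log2 fold change 1.58 ± 0.53, adjusted p = 0.0381), and lost its call without Slc11a2KD APP/PS1 4, 21 or 23 or Control WT 6, 8, 9, 12 or 15 (adjusted p = 0.0517 to 0.108). Tpi1, Pgk1, Aldoa, Ldha, Pkm, Gapdh and Slc16a3 were above every healthy sample in each of the 5 knockdown samples. Pgk1 and Gapdh have many pseudogenes, so their totals may be split.

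Respiratory chain and ribosomal protein genes gave the highest shares called, and both lists hold short transcripts (median 1179 and 1096 bases against 2788 over the genes tested). Of 77 chain and ATP synthase subunits 73 rose and 0 fell (median 0.95). With the length offset 50 rose, at a median of 0.37, and with library numbers 18 to 23 as a term 0 did. Of 77 cytosolic ribosomal proteins 72 rose and 0 fell (median 0.92), 33 with the length offset at a median of 0.32, and 0 with the library number term. For ribosomal proteins weaving out Slc11a2KD APP/PS1 21 gave a higher count of 46. Control APP/PS1 against Control WT had 3 and 9 members higher. Cox4i1, a subunit of complex IV, measured 884, 1223, 1661, 2207 and 1713 CPM against 637 to 793 CPM (median 726) (log2 fold change 1.10 ± 0.22, adjusted p = 0.00135). Cox7a2 measured 102, 125, 207, 286 and 191 CPM against 56.4 to 80.6 CPM (median 72.1) (log2 fold change 1.38 ± 0.24, adjusted p = 0.000286). Ndufv3, of complex I, measured 45.5, 56.8, 72.7, 91.4 and 70.5 CPM against 26.1 to 35.3 CPM (median 29.96) (log2 fold change 1.18 ± 0.20, adjusted p = 0.000217).

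Rps14 measured 4472, 6724, 9997, 15563 and 9666 CPM against 3532 to 4565 CPM (median 3773) (log2 fold change 1.26 ± 0.29, adjusted p = 0.00323). Rps2 measured 1966, 2589, 2972, 3396 and 2807 CPM against 1195 to 1629.5 CPM (median 1264) (log2 fold change 1.05 ± 0.17, adjusted p = 0.000186), and Rpsa 1869, 2327, 2859, 3302 and 3229.9 CPM against 1130.5 to 1573 CPM (median 1291) (log2 fold change 1.04 ± 0.16, adjusted p = 0.000122). With the length offset these were 0.45, adjusted p = 0.0221 for Rps14, 0.48, adjusted p = 0.000179 for Rps2 and 0.77, adjusted p = 4.25e-05 for Rpsa. Within the knockdown group, Cox4i1, Cox7a2 and Rps14 were lowest in sample 4 and highest in sample 21, the samples with the lowest and the highest short-minus-long transcript level. The part of that level in the 2 lists was not tested beyond the offset. Ribosomal protein genes have many near-identical pseudogenes, so that their counts are uncertain.

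Of 23 MHC class I presentation genes 12 rose and 0 fell (median 0.47), with the length offset 11 were higher and 1 lower (median 0.33), and against Control WT, Control APP/PS1 had 8 higher and 0 lower (median 0.40). Without Slc11a2KD APP/PS1 4 the lower count was 2. The library number term left 3 higher and 0 lower. H2-T22, a nonclassical heavy chain, measured 119, 139, 142, 172 and 148 CPM against 60.8 to 84.9 CPM (median 69.1) (log2 fold change 1.02 ± 0.16, adjusted p = 7.90e-05). Psme1, a proteasome activator, measured 182, 183, 197, 174 and 221 CPM against 117 to 138 CPM (median 127) (log2 fold change 0.59 ± 0.10, adjusted p = 0.000161). Erap1, the peptide trimmer, measured 89.2, 60.02, 47.5, 29.7 and 31.5 CPM against 68.9 to 80.7 CPM (median 72.8) (log2 fold change -0.52 ± 0.20, adjusted p = 0.0631), and passed the test without Slc11a2KD APP/PS1 4 (adjusted p = 0.000682). H2 genes share much sequence, so reads may be split between them.

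Of 13 MHC class II genes 2 rose and 3 fell (median -0.48), with the length offset 1 was higher and 4 lower (median -0.98), and against Control WT, Control APP/PS1 had 1 higher and 6 lower (median -0.57). Shares over all genes were 12.1% higher, which the 2 are near, and 7.47% lower. The higher count was 1 without Slc11a2KD APP/PS1 20, 21 or 23 or Control WT 8, 9 or 15. With library numbers 18 to 23 as a term, 0 were higher and 4 lower. H2-Ob, a subunit of the exchange inhibitor DO, measured 119, 115, 107, 107 and 93.1 CPM against 59.4 to 95.5 CPM (median 72.6) (log2 fold change 0.55 ± 0.12, adjusted p = 0.00221), and its partner H2-Oa 25.5, 28.2, 23.1, 17.2 and 23.1 CPM against 30.3 to 36.3 CPM (median 32.2) (log2 fold change -0.48 ± 0.12, adjusted p = 0.00571). H2-DMb1, of the peptide exchanger, was higher by 0.49 ± 0.16, adjusted p = 0.0359, and lost its call without Slc11a2KD APP/PS1 20, 21 or 23 or Control WT 8, 9 or 15 (adjusted p = 0.0613 to 0.12) and with the length offset (0.03, adjusted p = 0.854). H2-Aa, a class II alpha chain, measured 60.01, 119, 245, 167 and 609 CPM against 152 to 738 CPM (median 263) (log2 fold change -0.51 ± 0.57, adjusted p = 0.583). Cd74, the class II chaperone, measured 73.3, 73.2, 108, 44.8 and 189 CPM against 119.6 to 504 CPM (median 158) (log2 fold change -1.19 ± 0.41, adjusted p = 0.0423), and lost its call without Slc11a2KD APP/PS1 4, 18, 20 or 21 or Control WT 9 or 12 (adjusted p = 0.0648 to 0.149). Class II genes are also expressed by border-associated macrophages, whose markers were lower for 4 of 12 members (median -0.62), and with the length offset 1 higher and 7 lower (median -1.04). The part of these cells in the class II values was not tested. Mrc1, their mannose receptor, measured 57.2, 32.2, 36.9, 16.7 and 31.9 CPM against 69.4 to 129 CPM (median 98.9) (log2 fold change -1.51 ± 0.30, adjusted p = 0.00116). Stab1, the most abundant of these markers, measured 248, 201, 131, 56.0 and 90.4 CPM against 229.6 to 514 CPM (median 393) (log2 fold change -1.44 ± 0.31, adjusted p = 0.00192).

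Few interferon-stimulated genes were called. Of 37 measured members 4 rose and 1 fell, at or under the shares of all genes (12.1% and 7.47%), with a median of 0.08, with the length offset 3 were higher and 1 lower (median -0.06), and against Control WT, Control APP/PS1 had 5 higher and 0 lower (median 0.50). The summed level of the list was 1159 to 1463 CPM in Slc11a2KD APP/PS1 against 519.8 to 1084 CPM in Control WT, with no overlap between the groups, while the mean log2 CPM over the members, which gives each gene the same weight, was 3.12 to 3.89 against 2.47 to 3.73 and overlapped. Oas1a, an antiviral synthetase, measured 29.0, 44.5, 31.6, 44.9 and 31.5 CPM against 7.89 to 18.3 CPM (median 13.2) (log2 fold change 1.44 ± 0.29, adjusted p = 0.00125). Bst2, tetherin, measured 188, 163, 230.4, 339.9 and 273 CPM against 45.2 to 185 CPM (median 114) (log2 fold change 1.05 ± 0.27, adjusted p = 0.00842), and was not called with the length offset (0.37, adjusted p = 0.272). Rigi, an RNA sensor, measured 18.5, 13.7, 9.57, 6.49 and 3.95 CPM against 16.5 to 24.5 CPM (median 20.2) (log2 fold change -0.97 ± 0.28, adjusted p = 0.0156), and lost its call without Slc11a2KD APP/PS1 21 (adjusted p = 0.0518). Ifi27l2a, named after its value was seen, measured 114, 118, 98.5, 166 and 94.6 CPM against 13.5 to 66.0 CPM (median 25.3) (log2 fold change 1.83 ± 0.38, adjusted p = 0.00155). Isg15, the ubiquitin-like interferon product, measured 17.9, 14.7, 12.9, 28.3 and 21.3 CPM against 8.35 to 27.3 CPM (median 13.4) (log2 fold change 0.35 ± 0.28, adjusted p = 0.409). Mamdc2, given above, is also in this list. It was near silent in Control WT, so the gap in the summed level rests in part on this 1 gene.

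Of 35 measured chemokine and cytokine genes 11 rose and 1 fell (median 0.70), with the length offset 7 were higher and 4 lower (median 0.41), and against Control WT, Control APP/PS1 had 8 higher and 3 lower (median 0.52). In fits without 1 sample, the higher count was 6 without Slc11a2KD APP/PS1 21 and 7 without Slc11a2KD APP/PS1 23. With the library number term 3 higher and 1 lower were called (median 0.13). Igf1, given above, led the list. Ccl6, a myeloid chemokine, measured 1003, 1123, 946, 1364 and 1013 CPM against 144 to 489 CPM (median 252) (log2 fold change 2.01 ± 0.29, adjusted p = 3.34e-05). Cxcl14, named after its value was seen, measured 29.4, 100.1, 82.1, 82.7 and 160.3 CPM against 0.680 to 14.1 CPM (median 4.28) (log2 fold change 4.04 ± 0.67, adjusted p = 0.000186). Ccl4, an early response chemokine that cell isolation itself can induce, measured 627, 384, 632, 1967 and 1431 CPM against 85.8 to 987 CPM (median 314) (log2 fold change 1.05 ± 0.55, adjusted p = 0.182). Ccl24 fell, at 5.09, 7.46, 6.46, 9.03 and 5.21 CPM against 8.78 to 13.4 CPM (median 11.4) (log2 fold change -0.77 ± 0.20, adjusted p = 0.01).

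Of 33 immediate early and NF-kB genes 2 rose and 3 fell (median -0.38), with the length offset 0 were higher and 4 lower (median -0.26), and against Control WT, Control APP/PS1 had 0 higher and 0 lower (median 0.03). The 2 and 3 are under and near the shares of all genes, 12.1% higher and 7.47% lower. Leaving out 1 sample, the higher count was 0 without Slc11a2KD APP/PS1 21 and 1 without Slc11a2KD APP/PS1 23 or Control WT 6, 8, 9 or 12 and the lower count was 1 without Slc11a2KD APP/PS1 18, 20 or 23 or Control WT 8, 14 or 15, 6 without Slc11a2KD APP/PS1 4 and 7 without Control WT 12. DESeq2 called 7 lower, as did edgeR without Slc11a2KD APP/PS1 4 and Control WT 12 and 15 together. Jun measured 1297, 609, 496, 921 and 676 CPM against 781 to 2128 CPM (median 1864) (log2 fold change -1.03 ± 0.33, adjusted p = 0.031), and lost its call without Slc11a2KD APP/PS1 18, 20 or 23 or Control WT 8, 14 or 15 (adjusted p = 0.0572 to 0.0845). Nfkb1 measured 119, 89.8, 70.7, 73.6 and 57.0 CPM against 119 to 149 CPM (median 134) (log2 fold change -0.72 ± 0.18, adjusted p = 0.00579), and Nfkbia, its inhibitor, 2057, 1349, 1679.8, 4502 and 3192 CPM against 909 to 2731 CPM (median 1953) (log2 fold change 0.52 ± 0.30, adjusted p = 0.241). Ier3 was higher by 0.76 ± 0.20, adjusted p = 0.00836, and lost its call without Slc11a2KD APP/PS1 21 (adjusted p = 0.0513) and with the length offset (0.19, adjusted p = 0.456). Dusp2 was higher by 0.80 ± 0.25, adjusted p = 0.0291, and lost its call without Slc11a2KD APP/PS1 21 or 23 or Control WT 6, 8, 9 or 12 (adjusted p = 0.0534 to 0.107) and with the length offset (0.46, adjusted p = 0.16).

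Of 19 heat shock chaperone genes 3 rose and 0 fell, with a median of -0.26, with the length offset 2 were higher and 1 lower (median -0.16), and against Control WT, Control APP/PS1 had 3 higher and 0 lower (median 0.19). Beside the shares of all genes, 12.1% higher and 7.47% lower, the 3 are near and the 0 under. Hspe1, the mitochondrial co-chaperonin, measured 189, 264, 377, 639.7 and 355 CPM against 107 to 182 CPM (median 123) (log2 fold change 1.47 ± 0.27, adjusted p = 0.000469). Hspa8, the constitutive cytosolic chaperone, measured 1277, 1191, 1262, 1291 and 1539 CPM against 642 to 919 CPM (median 775) (log2 fold change 0.75 ± 0.12, adjusted p = 8.31e-05). The inducible pair Hspa1a and Hspa1b, near-identical neighbours whose reads may be split, measured 40.3, 8.48, 7.44, 24.6 and 10.48 CPM and 25.9, 4.24, 5.40, 10.1 and 6.97 CPM. In Control WT they ran from 17.8 to 147 CPM (median 31.8) and 5.68 to 69.8 CPM (median 16.8), sample 15 being the highest of both. Neither passed the test (-1.52 ± 0.73, adjusted p = 0.143 and -1.18 ± 0.79, adjusted p = 0.308).

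Most complement genes, 14 of 20, were not called, and 2 were higher and 4 lower (median -0.52). Shares over all genes were 12.1% higher, which the 2 are near, and 7.47% lower. With the length offset 2 were higher and 8 lower (median -0.71), and against Control WT, Control APP/PS1 had 2 higher and 4 lower (median -0.58). Without Slc11a2KD APP/PS1 4 the lower count was 7. C3ar1, the C3a receptor, measured 451, 473, 663, 569 and 595 CPM against 283 to 381 CPM (median 315) (log2 fold change 0.78 ± 0.11, adjusted p = 2.86e-05). C1qb, a chain of the initiator C1q, measured 3284, 2768, 2550.4, 2349.9 and 2519.6 CPM against 3416 to 4193 CPM (median 3584) (log2 fold change -0.46 ± 0.11, adjusted p = 0.0052). C1qa measured 6853, 6391, 6579, 7643 and 6675 CPM against 6270.3 to 9089.8 CPM (median 7257) (log2 fold change -0.13 ± 0.12, adjusted p = 0.497), and was called lower with the length offset (-0.65, adjusted p = 0.000295). C5ar2, the decoy C5a receptor, measured 21.7, 34.2, 34.9, 17.8 and 19.4 CPM against 33.2 to 55.1 CPM (median 46.9) (log2 fold change -0.85 ± 0.19, adjusted p = 0.00246).

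Of 30 Fc, scavenger and phagocytic receptor genes 10 rose and 8 fell, with the length offset 6 were higher and 8 lower (median -0.06), and against Control WT, Control APP/PS1 had 7 higher and 4 lower (median 0.17). The lower count was 5 without Slc11a2KD APP/PS1 21 or 23. Scarb1, the HDL receptor, measured 56.6, 74.2, 78.8, 62.5 and 87.5 CPM against 22.1 to 28.3 CPM (median 25.6) (log2 fold change 1.49 ± 0.15, adjusted p = 2.10e-07). Inpp5d, the SHIP1 phosphatase that restrains Trem2 signalling, measured 582, 337, 288, 172 and 185 CPM against 509 to 595 CPM (median 529) (log2 fold change -0.80 ± 0.24, adjusted p = 0.0193). It overlapped the healthy range in sample 4 and lost its call without Slc11a2KD APP/PS1 21 or 23 (adjusted p = 0.0594 to 0.0614).

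Of 27 inhibitory and SLAM receptor genes 9 rose and 3 fell (median 0.36), with the length offset 10 were higher and 3 lower (median 0.60), and against Control WT, Control APP/PS1 had 11 higher and 3 lower (median 0.31). Without Slc11a2KD APP/PS1 4 the lower count was 6. DESeq2 called 5 lower. Cd300lf, a lipid-sensing receptor, measured 15.8, 12.9, 15.8, 28.1 and 25.7 CPM against 0.799 to 4.49 CPM (median 2.68) (log2 fold change 2.86 ± 0.34, adjusted p = 3.09e-06). Slamf9 measured 196, 268, 316, 288 and 297 CPM against 98.6 to 136 CPM (median 118) (log2 fold change 1.22 ± 0.16, adjusted p = 1.04e-05). Pdcd1, the checkpoint receptor PD-1, named after its value was seen, measured 58.6, 61.9, 44.9, 45.9 and 58.6 CPM against 5.85 to 27.3 CPM (median 9.65) (log2 fold change 2.22 ± 0.38, adjusted p = 0.000294). Siglece measured 45.8, 38.1, 29.2, 31.9 and 43.3 CPM against 67.1 to 101 CPM (median 88.5) (log2 fold change -1.20 ± 0.16, adjusted p = 1.72e-05), and Cd33, a sialic acid lectin linked to Alzheimer risk, 554, 461, 386, 327 and 443 CPM against 655 to 770.1 CPM (median 716) (log2 fold change -0.71 ± 0.12, adjusted p = 0.000239). Lag3 measured 209.7, 101, 58.2, 29.5 and 39.9 CPM against 162 to 253 CPM (median 198) (log2 fold change -1.22 ± 0.37, adjusted p = 0.0232), with sample 4 in the healthy range, and lost its call without Slc11a2KD APP/PS1 20, 21 or 23 (adjusted p = 0.0632 to 0.0654). Vsir, the abundant checkpoint VISTA, measured 2278, 1908, 1729.5, 1706 and 1949 CPM against 2082 to 2389.9 CPM (median 2233) (log2 fold change -0.22 ± 0.09, adjusted p = 0.107), and passed the test without Slc11a2KD APP/PS1 4 (adjusted p = 0.0221).

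Of 25 pattern recognition genes 10 fell and 3 rose (median -0.30), with the length offset 3 were higher and 8 lower (median -0.27), and against Control WT, Control APP/PS1 had 4 higher and 7 lower (median -0.07). Leaving out 1 sample, the lower count was 6 without Slc11a2KD APP/PS1 20, 21 or 23 or Control WT 8. In the fit with the library number term 1 higher and 1 lower were called. Cd14, the lipopolysaccharide co-receptor, measured 587, 819, 866, 1167 and 944 CPM against 356 to 501 CPM (median 427) (log2 fold change 1.04 ± 0.13, adjusted p = 8.47e-06), and Tlr2 410.1, 559, 573, 735 and 555 CPM against 253 to 430.4 CPM (median 315) (log2 fold change 0.82 ± 0.17, adjusted p = 0.00129). Sting1, the cytosolic DNA adaptor, measured 247, 259.8, 243, 181 and 225 CPM against 386 to 482 CPM (median 416) (log2 fold change -0.87 ± 0.10, adjusted p = 1.80e-06). Tlr5, the flagellin receptor, measured 10.6, 9.85, 5.34, 4.28 and 4.05 CPM against 17.9 to 28.3 CPM (median 20.7) (log2 fold change -1.70 ± 0.30, adjusted p = 0.00034). Unc93b1, which carries endosomal Toll-like receptors, was lower by -0.26 ± 0.09, adjusted p = 0.0382, and lost its call without Slc11a2KD APP/PS1 18, 20 or 21 or Control WT 6, 8, 12 or 15 (adjusted p = 0.0509 to 0.0869).

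Of 34 TGF-beta and lineage factor genes 7 fell and 3 rose (median -0.27), with the length offset 5 were higher and 7 lower (median -0.16), and against Control WT, Control APP/PS1 had 5 higher and 4 lower (median -0.07). Shares over all genes were 7.47% lower and 12.1% higher, and the 3 that rose are under the latter. Bhlhe40, a transcriptional repressor, measured 36.5, 40.3, 33.8, 33.0 and 26.9 CPM against 2.24 to 17.6 CPM (median 6.58) (log2 fold change 2.15 ± 0.35, adjusted p = 0.000143). Cebpa, a myeloid factor, measured 593, 568, 535, 569 and 581 CPM against 422 to 441 CPM (median 429.6), a narrow spread in both groups (log2 fold change 0.40 ± 0.10, adjusted p = 0.00464). Maf, a macrophage identity factor, measured 217, 173, 182, 149 and 180.2 CPM against 332 to 491 CPM (median 388) (log2 fold change -1.19 ± 0.15, adjusted p = 9.09e-06).

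Of 35 Alzheimer risk and amyloid precursor genes 7 rose and 11 fell (median -0.19), with the length offset 4 were higher and 9 lower (median -0.05), and against Control WT, Control APP/PS1 had 9 higher and 6 lower (median 0.02). Without Control WT 12 and 15 the split was 3 and 5. In fits without 1 sample, the higher count was 3 without Slc11a2KD APP/PS1 20 or 23 and 4 without Slc11a2KD APP/PS1 18 or 21 or Control WT 15 and the lower count was 5 without Slc11a2KD APP/PS1 21 or 23 and 7 without Slc11a2KD APP/PS1 20. Ms4a6b measured 54.0, 56.1, 69.0, 76.6 and 73.1 CPM against 97.9 to 121 CPM (median 112) (log2 fold change -0.75 ± 0.17, adjusted p = 0.00299). The values of Trem2, Cd33, Inpp5d and Ctsh stand above.

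Of 38 cell cycle genes 11 rose and 2 fell (median 0.35), with the length offset 7 were higher and 2 lower (median 0.22), and against Control WT, Control APP/PS1 had 4 higher and 1 lower (median 0.23). The higher count was 7 without Slc11a2KD APP/PS1 21. Cdk1, the mitotic kinase, measured 12.7, 18.5, 18.8, 35.0 and 21.95 CPM against 5.33 to 14.8 CPM (median 6.33) (log2 fold change 1.46 ± 0.30, adjusted p = 0.00169). Cdkn2c, an inhibitor of G1 kinases, measured 16.9, 24.4, 29.2, 42.1 and 26.3 CPM against 11.1 to 19.8 CPM (median 12.1) (log2 fold change 1.04 ± 0.20, adjusted p = 0.000908), and Cdkn2a, named after its value was seen, 5.86, 8.45, 12.7, 8.59 and 4.76 CPM against 0.140 to 4.202 CPM (median 1.22) (log2 fold change 2.37 ± 0.51, adjusted p = 0.00227). Ccnd1, the abundant G1 cyclin, measured 205, 187, 165, 119 and 207 CPM against 197 to 291 CPM (median 263) (log2 fold change -0.54 ± 0.14, adjusted p = 0.00676), and Mcm4, a replication helicase subunit, 15.9, 14.3, 11.3, 6.28 and 8.49 CPM against 14.97 to 22.1 CPM (median 19.5) (log2 fold change -0.74 ± 0.19, adjusted p = 0.00856).

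Among genes called against Control WT, those set closest to health relative to Control APP/PS1 were listed by the p between the amyloid groups, which edgeR did not call for any gene after adjustment. The choice uses the same knockdown samples as both comparisons, so these values are a description. Ly9, a SLAM receptor, measured 55.8, 31.4, 32.5, 31.6 and 25.7 CPM against 9.77 to 20.1 CPM (median 13.9) in Control WT and 66.3 ± 11.7 CPM in Control APP/PS1, with log2 fold changes against Control WT of 1.28 and 2.19 (-0.91 ± 0.21, unadjusted p = 0.000207 between the amyloid groups). Sample 4 was the highest knockdown sample and lay nearest the Control APP/PS1 mean. Pnp, purine nucleoside phosphorylase, measured 99.7, 117, 98.9, 112 and 104 CPM against 129 to 158 CPM (median 144) and 74.4 ± 12.4 CPM (0.51 ± 0.12, unadjusted p = 0.000267). Tmem204 measured 17.1, 20.9, 21.3, 24.0 and 17.2 CPM against 35.5 to 62.2 CPM (median 50.9) and 12.99 ± 2.60 CPM (0.63 ± 0.16, unadjusted p = 0.000558). Clec4a2, an inhibitory lectin, measured 38.7, 53.1, 55.1, 73.3 and 58.8 CPM against 78.3 to 118 CPM (median 90.5) and 37.7 ± 5.65 CPM (0.57 ± 0.16, unadjusted p = 0.00159). Ccl24, given above, had 4.06 ± 0.715 CPM in Control APP/PS1 (0.71 ± 0.20, unadjusted p = 0.0018). Plau, urokinase, measured 127, 194, 172, 126 and 111 CPM against 77.2 to 123 CPM (median 96.4) and 233 ± 65.8 CPM (-0.67 ± 0.20, unadjusted p = 0.00215). Its call against Control WT was lost without Slc11a2KD APP/PS1 18 or 20 or Control WT 6, 9 or 12 (adjusted p = 0.0611 to 0.117) and with the length offset (0.46, adjusted p = 0.106).

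Many called genes lay farther from Control WT than Control APP/PS1 did. The 6 of smallest p between the amyloid groups were Nod1, Ric3, Kti12, Rpp25l, St3gal4 and Dbt. For all 6, Control APP/PS1 was near Control WT. They were chosen from the same samples too, so their values are a description. Nod1, a sensor of bacterial cell wall, measured 8.39, 6.33, 7.33, 7.003 and 10.6 CPM against 9.43 to 19.5 CPM (median 15.96) and 15.9 ± 4.57 CPM in Control APP/PS1 (-1.002 ± 0.23, unadjusted p = 0.000229 between the amyloid groups). St3gal4, a sialyltransferase, measured 24.4, 32.1, 42.0, 49.0 and 52.5 CPM against 17.8 to 28.9 CPM (median 25.9) and 25.3 ± 2.11 CPM (0.66 ± 0.17, unadjusted p = 0.000528). Dbt, of branched-chain ketoacid breakdown, measured 14.5, 12.7, 10.4, 11.5 and 9.71 CPM against 18.3 to 24.3 CPM (median 20.8) and 18.7 ± 1.23 CPM (-0.67 ± 0.17, unadjusted p = 0.000606). Against Control WT their log2 fold changes were -0.96, 0.67 and -0.82. Kti12 (0.65 against Control WT) and Rpp25l (0.58) lost that call without Slc11a2KD APP/PS1 21 (adjusted p = 0.0555) and without Slc11a2KD APP/PS1 21 (adjusted p = 0.0505), and Ric3 (-0.60) without Slc11a2KD APP/PS1 20, 21 or 23 or Control WT 9, 12 or 14 (adjusted p = 0.0537 to 0.112). None of Kti12, Rpp25l and Ric3 was called against Control WT with the length offset (adjusted p = 0.121, 0.0557 and 0.121).

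Endothelial and pericyte markers fell for 7 of 12 members, and for 2 of 12 without Control WT 12 and 15, while 1 was higher and 7 lower with the length offset. In fits without 1 sample, the lower count was 3 without Slc11a2KD APP/PS1 20 and 4 without Control WT 15. Cldn5, a tight junction gene, measured 21.4, 58.3, 40.1, 66.3 and 69.8 CPM against 67.8 to 176 CPM (median 89.8) (log2 fold change -1.02 ± 0.32, adjusted p = 0.0298), and lost its call without Slc11a2KD APP/PS1 4 or 20 or Control WT 6 or 15 (adjusted p = 0.0524 to 0.0837). Camk2a, the most abundant neuronal marker, measured 9.41, 6.45, 7.58, 5.64 and 5.66 CPM against 9.61 to 24.9 CPM (median 15.1) (log2 fold change -1.19 ± 0.23, adjusted p = 0.000756), and 2 of 12 neuronal markers fell, as with the length offset. For neurons the lower count was 1 without Slc11a2KD APP/PS1 18, 20, 21 or 23 or Control WT 8, 12 or 15. Mbp, of myelin, measured 367, 1035, 471, 667 and 824 CPM against 488 to 2389 CPM (median 1009) (log2 fold change -0.80 ± 0.40, adjusted p = 0.164), and 1 of 12 oligodendrocyte markers fell, against 3 with the length offset and 0 without Slc11a2KD APP/PS1 20, 21 or 23 or Control WT 12 or 15. That 1 of 12 is near the 7.47% of all genes called lower. Slc1a3, an astrocyte glutamate transporter, measured 540.5, 57.3, 314, 54.9 and 49.3 CPM against 105 to 692 CPM (median 524) (log2 fold change -1.09 ± 0.68, adjusted p = 0.266), and was called lower without Slc11a2KD APP/PS1 4 (adjusted p = 0.048); of 10 astrocyte markers 2 rose, and 1 with the length offset. For astrocytes the higher count was 1 without Slc11a2KD APP/PS1 18, 21 or 23 or Control WT 6, 8, 9 or 14. Among blood cell markers, S100a8, of neutrophils, measured 30.1, 16.8, 29.1, 31.2 and 66.9 CPM against 30.7 to 121 CPM (median 53.7) (log2 fold change -0.83 ± 0.48, adjusted p = 0.228), and 0 of 14 markers of neutrophils and monocytes passed in edgeR, against 5 lower with the length offset and 4 lower with DESeq2. Leaving out Slc11a2KD APP/PS1 23 or Control WT 12 gave a lower count of 2. The immunoglobulin gene Igkc measured 0.104, 0, 0.572, 2.08 and 144 CPM against 0 to 34.9 CPM (median 2.15) (log2 fold change 1.78 ± 1.46, adjusted p = 0.425), sample 23 standing far above the rest, while Ighm stayed within 247 to 401 CPM against 245 to 342 CPM (log2 fold change 0.13 ± 0.12, adjusted p = 0.461). Gzma, a cytotoxic granule protease, measured 2.36, 3.06, 7.03, 3.82 and 8.13 CPM against 2.13 to 17.7 CPM (median 6.04) (log2 fold change -0.57 ± 0.52, adjusted p = 0.482).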

How the data were processed

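RNA of CD11b-positive hippocampal cells was sequenced in bulk, and the deposited gene counts were used as the authors made them: reads trimmed with Trim Galore (0.6.7), aligned and counted per gene with STAR on mm39, rare features removed and replicates kept apart, by the study's methods and the submitters' processing notes, which also name DESeq2 (1.36.0). A second deposited table of size-factor normalized counts, with 23 per-sample columns, was not used. Groups came from the labels, where the knockdown genotype is named KO. Control APP/PS1 replicate 10 was left out, taken to be the outlier of that group that the study removed, which its text does not number. The study describes the samples of a group as biological replicates.

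Genes reaching 5 counts in 3 or more samples entered edgeR (4.0.16, R 4.3.3), with TMM scaling, 1 mean per group, 22 samples and a quasi-likelihood test, Benjamini-Hochberg adjustment and a threshold of 0.05. CPM are counts scaled to a common library total after TMM scaling. Positions used log2 CPM with a prior count of 2. The length offset was a spline with 5 degrees of freedom fitted to each library on the exon length of each canonical transcript in GENCODE M39 (GRCm39). The floor for a count of 0 was 3 counts. The scripts were tested on simulated data. DESeq2 (1.42.0), limma voom (3.58.1), other scalings, filters, samples and covariates were alternatives, and the length offset, length with GC, and the joint removal of libraries 4, 12 and 15 were added after seeing the data.

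The genes described are those the study names, the 12 largest changes in each direction without overlap and with a mean of at least 1 CPM, in each function list the 2 members of smallest p in each direction and the most abundant one, the 6 genes nearer and the 6 farther from Control WT than Control APP/PS1 by the p between the amyloid groups, and the most abundant marker of each cell type. Others are said to be named after their values were seen. Some genes are not reported here. The comparison, lists and rule were chosen with earlier results of these data known. Promoters are RefSeq windows (GRCm38.p6). The floor covers counting error only.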

Additional observations from a re-analysis of the deposited data

Results flagged for a closer look

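A sample was set apart where its gap to the next sample, as a share of the group's range, passed the Dixon limit for that group size. Of 380 such checks, over each named gene, the short-minus-long level and the position in both groups, 43 passed. The limit gives about 1 in 20 for independent values of normal spread. CPM values are skewed and the genes are related, so the 43 cannot be set against that rate. The values below are CPM, with the next sample's value.

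Control WT 14 was the highest healthy sample for Atp6v0d2 (1.65, next 0.338), Axl (206, next 107), Ch25h (18.5, next 7.31), Clec7a (127, next 52.1), Csf1 (89.8, next 39.1), Cst7 (52.8, next 7.96), Fabp5 (15.7, next 6.54), Ftl1 (1339.5, next 955), Gpnmb (10.1, next 1.359), Gusb (346, next 280), Hspe1 (182, next 135), Itgax (92.9, next 29.5), Lgals3 (62.1, next 26.3), Lpl (84.8, next 21.7), Pdcd1 (27.3, next 10.51), Prdx1 (375, next 296), Spp1 (415, next 52.9), Trem2 (1777, next 1469.5) and Vegfa (6.69, next 1.91). Of these, 12 belong to the disease-associated list, and the sample lay at 0.470 on the line between the Control means, the highest of the held-out Control WT samples. Without it the comparison called 2205 genes higher and 1358 lower.

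Control WT 9 was the highest for Asb11 (0.28, next 0), Bnip5 (3.89, next 1.81), Igkc (34.9, next 11.3), Isg15 (27.3, next 14.4), Itgae (6.89, next 3.88) and Trpm1 (0.644, next 0.163), and the lowest for Ahr (0.924, next 1.72). Control WT 15 was the highest for Cdk1 (14.8, next 8.49), Epas1 (35.2, next 21.3), Hspa1a (147, next 59.4) and Hspa1b (69.8, next 18.6). Control WT 12 was the highest for Sqle (8.37, next 3.46) and Tcap (0.372, next 0.0307), and Control WT 6 for Apoc4 (0.339, next 0). Control WT 6 was the lowest for Ccnd1 (197, next 259) and Control WT 8 for St3gal4 (17.8, next 25.4).

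In Slc11a2KD APP/PS1, sample 23 was the highest for Hspa8 (1539, next 1291), Igkc (144, next 2.08), Ptger3 (5.17, next 2.26) and S100a8 (66.9, next 31.2), and sample 21 for Ccr6 (18.7, next 0.899). Sample 4 was the highest for Hspa1b (25.9, next 10.1) and Ly9 (55.8, next 32.5), and the lowest for Mamdc2 (88.3, next 163). Igkc in sample 23 and Ccr6 in sample 21 stand many times above the next sample of their group. The checks were not adjusted for their number.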

How the results depend on the processing

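Of 188 named genes 164 were called, and 72 of these kept their direction and call under every alternative run, while 3 (H2-DMb1, Hk2 and Tyrobp) turned under at least 1. Requiring 10 counts in every sample left some named genes without a value. Against Control WT, 2276 higher and 1402 lower genes became 894 and 427 with a log2 fold change above 1 as well, and 414 and 244 with library numbers 18 to 23 as a term. The lower count was 920 with edgeR on the 2 groups alone, 928 without Control WT 12 and 15, and 2145 without Slc11a2KD APP/PS1 4 as well. Leaving out 1 sample in turn gave 1489 to 2772 higher and 855 to 2562 lower. Between the amyloid groups, the 0 and 0 calls became 449 and 131 with DESeq2, 55 and 18 with DESeq2 on the 2 groups alone, 0 and 2 with limma voom, and 829 and 590 with the length offset without Slc11a2KD APP/PS1 4. Leaving out 1 sample in turn gave 0 to 1373 and 0 to 1696. The mean position of 0.810 was 0.857 over called genes only, 0.836 with a prior count of 5 and 0.861 with Control APP/PS1 replicate 10 kept. Over called genes the held-out Control APP/PS1 mean moved from 0.858 to 0.984 and that of Control WT from 0.288 to 0.0421; those genes were chosen with the same control samples, which by itself draws the Control positions toward 0 and 1.

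Single genes turned, with these log2 fold changes. The library number term gave H2-DMb1 -0.093, Hk2 0.093, Hspa1a 0.53, Hspa1b 1.43 and Nfe2l2 0.40. The length offset gave B2m -0.47, Ighm -0.20, Isg15 -0.32, Tyrobp -0.19 and Vsir 0.040, with GC added B2m -0.45, Ighm -0.21, Isg15 -0.33, Tyrobp -0.16 and Vsir 0.053, and without Slc11a2KD APP/PS1 4 Apoe -0.14, B2m -0.69, Ighm -0.29, Isg15 -0.47, Tyrobp -0.25 and Vsir 0.066. Limma voom gave Enpp2 1.82, Igkc -2.03 and Ttr 8.24. Without Control WT 12 and 15, Enpp2 was 3.98 and Ttr 15.8, and without Slc11a2KD APP/PS1 4 as well, B2m -0.030, Enpp2 4.29, H2-Aa 0.13 and Ttr 16.1. Leaving out 1 sample in turn, B2m ran from -0.027 to 0.093, Ccr6 from -0.86 to 2.47, Igkc from -3.64 to 3.19 and Ttr from -1.28 to 0.43. The cause was not tested. Fitted folds of Ttr rest on Control WT samples most of which lie near 0, and are no bounds. Enpp2 had counts in every Control WT sample. No paired analysis was possible because the library numbers are unique and the groups share none. Depth limits fold changes against controls with 0 counts, such as Wif1, Yipf7 and Gm38335, to lower bounds.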
